A study of Chlorocebus sabaeus with 3 samples.

Results

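Chemokines and their receptors were examined in cell-free RNA of amniotic fluid supernatant from vervet monkeys (Chlorocebus sabaeus), an Old World primate. The members were all genes whose name in the files is that of a CC, CXC, CX3C or XC chemokine or of a classical or atypical chemokine receptor. This gave 57 of 33994 genes, of which 35 encode ligands, 18 signalling receptors and 4 atypical receptors. The rule uses gene names and no measured value. The study sequenced 1 library from a pregnancy that ended in stillbirth (sex label M), 1 from a spontaneous abortion (sex label NA) and 1 from a pregnancy with a live outcome (sex label F). The sources used here give neither gestational age nor any treatment. Because each status has 1 library, libraries and not conditions are compared, no test between statuses was made, and every interval below covers counting error only.

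Chemokines are small secreted proteins that guide leukocytes along a gradient. They signal through G protein-coupled receptors on the migrating cell, and most ligands and receptors have several partners. Atypical receptors bind the same ligands without classical G protein signalling and take them up, which shapes the gradient. In the uterus and fetal membranes, chemokines draw neutrophils and monocytes at labour and in intrauterine infection, and many epithelia secrete their own constitutive set.

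The libraries held 17749954 (stillborn), 29926352 (spontaneous abortion) and 20220899 (alive) assigned reads, solved from the deposited RPKM, which are reads divided by gene length in kilobases and scaled to the assigned reads. Where no length enters, RPM stands for reads per 1000000 assigned reads. The labelled source could be checked only against broad lineages: all 7 epithelial markers had at least 10 reads in every library, with summed RPKM 2176, 2959 and 3266 in the order stillborn, spontaneous abortion, alive. That order is kept for all triplets of values below. All 4 trophoblast markers in the files were at 0 in the stillborn and alive libraries, and 3 of 4 in the spontaneous abortion library. In such a fluid, the number of source cells, the RNA in each and its release and decay cannot be told apart.

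Chemokine RNA was scarce in all 3 fluids. Of the 57 members, 15 had 0 reads in every library, 16 had reads but fewer than 10 in each, and 26 reached 10 reads in at least 1 library. At least 10 reads were found for 21, 18 and 14 members, or 36.8%, 31.6% and 24.6% of them, beside 43.7%, 46.4% and 44.0% of all genes. An RPKM of 1 or more was reached by 10, 3 and 4 members (17.5%, 5.26% and 7.02%), beside 29.3%, 29.9% and 30.05% of all genes. The CXC ligand CXCL17 and the receptor CCR2 were the 2 members at RPKM 1 or more in all 3 libraries. The highest value of any member was that of CCL18 in the stillborn library, RPKM 3.98, which lay at the 70.8th percentile of the genes above 0 there.

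**Figure D1:**
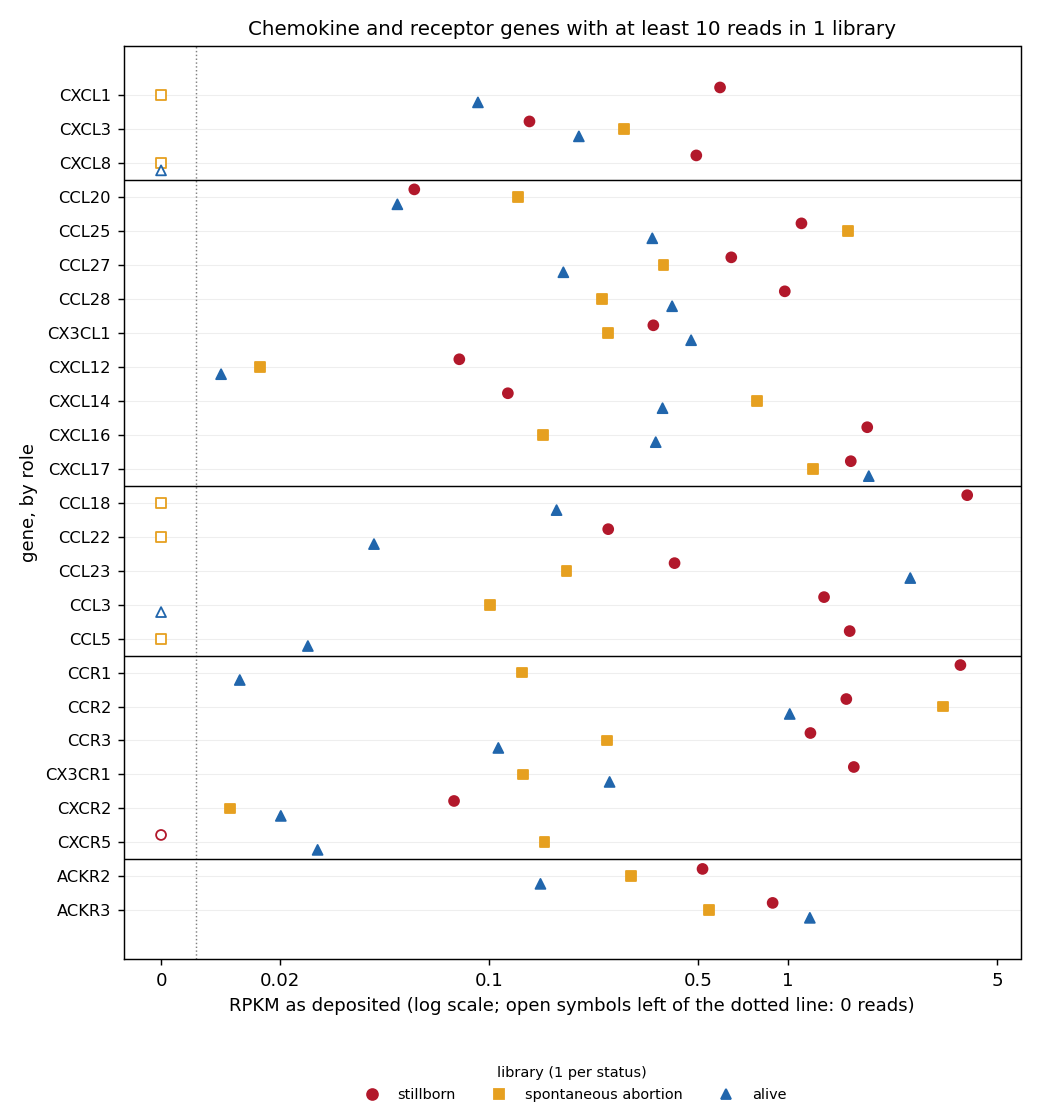
Deposited RPKM (horizontal axis, log scale, with 0 reads as open symbols at the left) of 25 members with at least 10 reads in 1 library, grouped by role from top to bottom as neutrophil-attracting CXC, constitutive and epithelial, and inflammatory CC ligands, signalling receptors and atypical receptors. Each symbol is 1 library, and the stillborn symbol lies farthest right for CCL18, CCL3, CCL5, CCR1, CCR3, CX3CR1 and CXCL16.

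Summed by role, the signalling receptors and the inflammatory CC ligands differed between all 3 libraries by more than counting error. Signalling receptors had 656, 304 and 110 reads, or 37.0 RPM in the stillborn library (95% exact binomial interval 34.2 to 39.9), 10.2 in the spontaneous abortion (9.05 to 11.4) and 5.44 in the alive library (4.47 to 6.56). Inflammatory and macrophage CC ligands had 217, 19 and 114 reads, or 12.2 (10.7 to 14.0), 0.635 (0.382 to 0.991) and 5.64 (4.65 to 6.77) RPM. The intervals do not overlap in either group, but the stillborn and alive sums came from different ligands: CCL18 gave the most reads in the stillborn library (38.2%), and CCL23 gave 92.1% of those in the alive library. Constitutive and epithelial ligands stood closer together, at 17.6, 10.9 and 10.9 RPM, and atypical receptors at 28.8, 17.6 and 32.1. Neutrophil-attracting CXC ligands came to 2.14, 0.702 and 0.643 RPM, from 38, 21 and 13 reads.

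**Figure D2:**
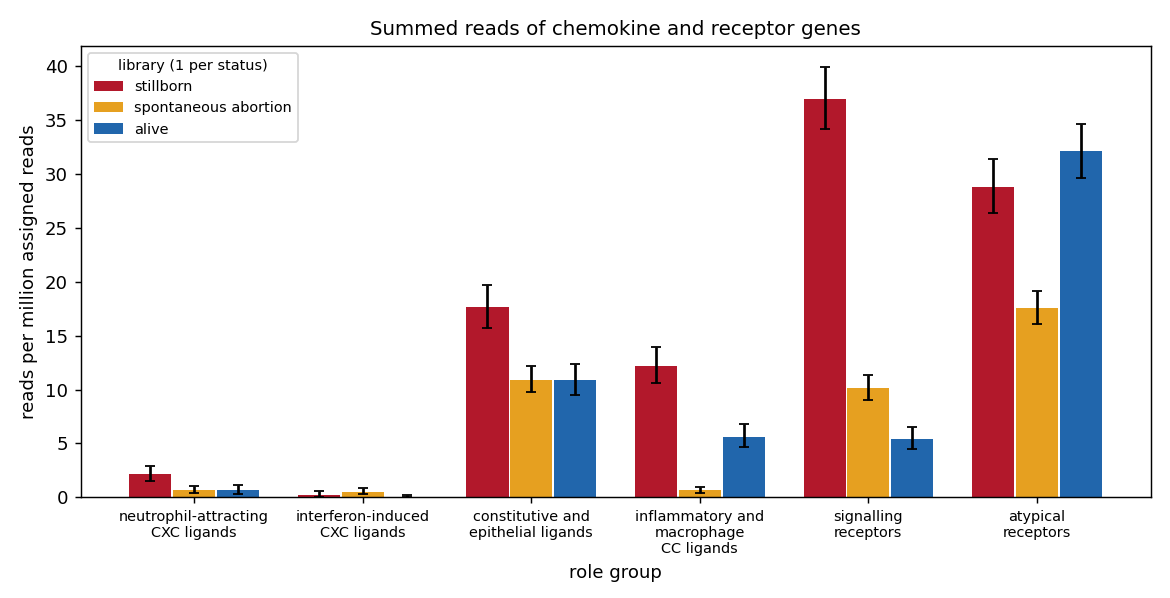
RPM (reads scaled to the assigned reads, vertical axis) summed over the members of each role group (horizontal axis), 1 bar per library, with 95% exact binomial intervals as error bars. Signalling receptors stood at 37.0, 10.2 and 5.44 and inflammatory CC ligands at 12.2, 0.635 and 5.64 in the same order of libraries.

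Among the inflammatory CC ligands, CCL18, a chemokine of macrophages and dendritic cells, had 83, 0 and 4 reads (RPKM 3.98, 0 and 0.168). After the libraries were scaled with TMM, a trimmed mean of log ratios over genes, it was 26.4-fold higher in the stillborn than in the alive library (95% interval 9.95 to 99.3). CCL5, a chemoattractant of T cells, monocytes and eosinophils that T and NK cells secrete, had 57, 0 and 1 reads (RPKM 1.61, 0 and 0.0248), a ratio of 72.6 over the alive library (12.5 to 2919). Both were thus present in the stillborn library and near or at 0 in the other two. CCL3, a macrophage inflammatory protein, had 39, 5 and 0 reads (RPKM 1.32, 0.1005 and 0). Its level was 14.3-fold higher in the stillborn than in the spontaneous abortion library (5.64 to 46.5).

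A library at 0 was given a floor of 3 reads for the ratio. On that floor CCL18 was 50.8-fold and CCL5 34.9-fold higher in the stillborn than in the spontaneous abortion library. CCL3 was 16.6-fold higher in the stillborn than in the alive library. The lower bounds of the exact intervals were 40.4, 27.4 and 12.8. CCL22, a macrophage ligand of CCR4, followed the order of CCL18 and CCL5 with fewer reads, 16, 0 and 3 (RPKM 0.251, 0 and 0.0412). It was 6.80-fold higher in the stillborn than in the alive library (1.95 to 36.4).

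CCL23, a myeloid ligand of CCR1, ran the other way. It had 15, 11 and 105 reads (RPKM 0.418, 0.182 and 2.57) and was the member with the highest RPKM in the alive library. Against the alive library it was 5.49-fold lower in the stillborn (3.18 to 10.2) and 13.7-fold lower in the spontaneous abortion library (7.37 to 28.4). Stillborn stood 2.50-fold above spontaneous abortion (1.07 to 6.02). CCL15, the myeloid chemokine most like CCL23, had 2, 1 and 1 reads, too few for a ratio. Reads of close paralogs could be split or lost in counting, so the ratio of CCL23 to CCL15 is uncertain.

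The remaining CC ligands of this group were nearly absent. CCL8 and CCL13 had 2 stillborn reads each and 0 elsewhere, CCL17 had 1, and CCL26 had 2 in the spontaneous abortion library. CCL1, CCL7, CCL11, CCL14, CCL16 and CCL24 were at 0 in all 3 libraries. A count of 0 allows up to 3 reads, or 0.169, 0.10025 and 0.148 RPM.

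The CXC ligands that attract neutrophils through CXCR2 did not move as one. CXCL8, or interleukin-8, had 15, 0 and 0 reads (RPKM 0.494, 0 and 0). On the floor of 3 reads it was 6.37-fold higher in the stillborn than in the alive library. The lower bound of the exact interval was 4.57. CXCL1 had 17, 0 and 3 reads (RPKM 0.593, 0 and 0.0919), 7.22-fold higher in the stillborn than in the alive library (2.09 to 38.5). CXCL3 had 6, 21 and 10 reads (RPKM 0.137, 0.284 and 0.200) and a stillborn to alive ratio of 0.765, whose interval of 0.228 to 2.32 includes 1. CXCL1 and CXCL8 were thus highest in the stillborn library. CXCL3 had most reads in the spontaneous abortion library, but by no more than counting error. Its ratio was 1.46 for spontaneous abortion over alive (0.658 to 3.47) and 0.524 for stillborn over spontaneous abortion (0.173 to 1.34). Reads of CXCL1 and CXCL3, which are close paralogs, could be split or lost in counting. CXCL5 and CXCL6 were at 0 throughout. Of the ligands that interferon induces, CXCL10 had 4, 9 and 0 reads and CXCL9 had 0, 6 and 0, while CXCL11 was at 0 throughout.

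CXCL17, a chemokine of mucosal epithelia, was the most evenly spread of the 17 ligands with at least 10 reads in a library. It had 81, 102 and 106 reads (RPKM 1.62, 1.21 and 1.86). Its stillborn to alive ratio of 0.974 had an interval of 0.720 to 1.31, and spontaneous abortion stood 1.496-fold below alive (1.13 to 1.98). CX3CL1, the membrane-bound chemokine fractalkine, was at RPKM 0.355, 0.250 and 0.475, from 21, 25 and 32 reads, with a stillborn to alive ratio of 0.836 (0.458 to 1.496).

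CXCL16, a transmembrane chemokine of macrophages and epithelia that also acts as a scavenger receptor, had 94, 13 and 21 reads (RPKM 1.84, 0.151 and 0.361). It was 5.71-fold higher in the stillborn than in the alive library (3.53 to 9.64) and 13.3-fold higher than in the spontaneous abortion library (7.39 to 25.8). ZMYND15, the gene that overlaps it in RefSeq, was at RPKM 0.00187, 0 and 0. CCL28, a ligand of CCR10 and CCR3 from mucosal epithelia, had 46, 19 and 22 reads (RPKM 0.976, 0.239 and 0.410), 4.44-fold higher in the stillborn than in the spontaneous abortion library (2.55 to 8.03) and 2.66-fold higher than in the alive library (1.57 to 4.65). Both were highest in the stillborn library.

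CCL25, the thymic and intestinal ligand of CCR9, was high in both losses. It had 36, 87 and 13 reads (RPKM 1.11, 1.59 and 0.352), which put the spontaneous abortion 4.65-fold (2.58 to 9.08) and the stillborn library 3.53-fold (1.83 to 7.25) above the alive library. CXCL14, a chemokine of skin and other epithelia, had 4, 46 and 15 reads (RPKM 0.116, 0.789 and 0.381). It was 6.27-fold lower in the stillborn than in the spontaneous abortion library (2.29 to 24.0), and the latter stood 2.13-fold above the alive library (1.17 to 4.11). CCL27, the keratinocyte ligand of CCR10, was at RPKM 0.647, 0.384 and 0.177 from 16, 16 and 5 reads. CXCL12, a stromal ligand of CXCR4 and ACKR3, had 11, 4 and 2 reads, CCL20, the ligand of CCR6, had 4, 15 and 4, and CXCL13 and CCL19, which organise lymphoid tissue, had 0 in every library.

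Of the 18 signalling receptors, 7 reached 10 reads in a library and 4 (CCR6, CCR8, CXCR1 and XCR1) were at 0 in all. CCR1, the receptor of monocytes and neutrophils for CCL3, CCL5 and CCL23, had 226, 13 and 1 reads (RPKM 3.78, 0.129 and 0.0147). Its ratio was 288 for stillborn over alive (51.2 to 11427), with the single alive read leaving it loosely bounded, and 31.9 for stillborn over spontaneous abortion (18.3 to 60.8). CX3CR1, the fractalkine receptor of monocytes, macrophages and cytotoxic lymphocytes, had 167, 22 and 29 reads (RPKM 1.66, 0.130 and 0.253), 7.34-fold higher in the stillborn than in the alive library (4.93 to 11.3) and 13.9-fold higher than in the spontaneous abortion library (8.90 to 22.8).

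CCR3, the receptor of eosinophils for the eotaxins, had 204, 72 and 21 reads (RPKM 1.19, 0.249 and 0.107). It was 12.4-fold higher in the stillborn than in the alive library (7.89 to 20.4) and 5.20-fold higher than in the spontaneous abortion library (3.96 to 6.90). Of 7 markers of eosinophils, basophils and mast cells, 4 were in the files (GATA2, CPA3, MS4A2 and HDC), and their summed RPKM was 0.0773, 0.0924 and 0.00464, with HDC at 0 in all 3 libraries. In RPKM, CCR3 alone stood above the sum of these markers in each library, but RPKM of different genes depend on the gene lengths used. In reads, GATA2 had 12, 39 and 2, and the other markers in the files had 4 or fewer in each library.

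CCR2 was highest in the spontaneous abortion library. This receptor of classical monocytes for CCL2 had 38, 135 and 28 reads (RPKM 1.57, 3.30 and 1.01), so the spontaneous abortion library stood 3.35-fold above the alive (2.22 to 5.23) and 1.94-fold above the stillborn library (1.34 to 2.85).

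CXCR5, the receptor of B cells and follicular T cells, had 0, 17 and 2 reads, a spontaneous abortion to alive ratio of 5.90 (1.40 to 52.7), while the 6 B cell markers were all at 0 in the spontaneous abortion library. CXCR2, the neutrophil receptor of CXCL1 and CXCL8, had 10, 3 and 3 reads, 4.25-fold higher in the stillborn than in the alive library (1.09 to 24.0). CXCR4, the receptor of most leukocytes and of progenitors for CXCL12, had 1, 0 and 7 reads and CCR7, which leads cells to lymph nodes, 0, 1 and 5. Both had most reads in the alive library, but fewer than 10. The stillborn to alive intervals of CXCR4 (0.00404 to 1.42) and CCR7 (0 to 1.39) include 1. For spontaneous abortion over alive that of CCR7 also includes 1 (0.00294 to 1.24), while that of CXCR4 does not (0 to 0.482). CCR4, CCR9, CCR10, CXCR3 and CXCR6 had 3 reads or fewer in each library. CXCR6 and ACKR4 overlap FYCO1 and ACAD11 in RefSeq, CCL5, CCL28, CXCL12 and CXCL17 each overlap a locus of no gene name, and no source used here gives the strand setting of the counting.

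The atypical receptors were led by ACKR3, the scavenger of CXCL12, with 404, 418 and 613 reads, more than any other member in every library. Its RPKM was 0.889, 0.546 and 1.18, and the alive library stood 2.11-fold above the spontaneous abortion (1.86 to 2.40) and 1.19-fold above the stillborn library (1.05 to 1.35). ACKR2, the scavenger of inflammatory CC chemokines, had 104, 101 and 34 reads (RPKM 0.518, 0.298 and 0.149), with the stillborn 3.90-fold (2.62 to 5.92) and the spontaneous abortion library 2.06-fold (1.39 to 3.14) above the alive library. ACKR2 and ACKR3 thus stood in opposite order between the losses and the alive library. ACKR4 had 3, 6 and 2 reads, and ACKR1, the Duffy antigen of red cells and venules, had 0, 1 and 0.

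Levels of different genes are comparable only through the length that divides the reads, and that length was not the same kind of length for every gene. The RPKM of ACKR3 imply a length of 25596 bases and those of CCR1 one of 3371. Over all genes the implied length had a median of 2681 bases for the 5964 genes with 1 RefSeq transcript, 6325 for 6139 genes with 2 to 4, 14465 for 2522 genes with 5 to 10 and 33922 for 681 genes with 11 or more. The length thus grows with the number of transcripts, so RPKM is low for genes with many of them. This leaves the ratios between libraries untouched.

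A gene is called apart in a pair of libraries where the scaled ratio was 4-fold or more, the interval excluded 1 and the higher library had 30 or more reads. For stillborn over alive, 15 members had 30 reads in the higher library. Of these, 7 were apart as higher (CCL3, CCL5, CCL18, CXCL16, CCR1, CCR3 and CX3CR1), against 4.71% of all 13475 genes with such reads, and 1 as lower (CCL23), against 3.23%. For spontaneous abortion over alive, of 10 members CCL25 was apart as higher, against 2.31% of 13830 genes, and CCL23 as lower, against 1.50%. For stillborn over spontaneous abortion, of 15 members 8 were apart as higher (those 7 and CCL28), against 2.82% of 13834 genes, and 2 as lower, CXCL14 among them, against 1.65%. The pairs share libraries and are not independent. All 7 members apart as higher for stillborn over alive had fewer than 30 alive reads. They thus passed the read minimum only through the library where they were high. The same holds for stillborn over spontaneous abortion, except for CCR3 with 72 spontaneous abortion reads. CCL25 and the members apart as lower also passed only through their higher library. These counts describe the libraries and are no support for a difference between statuses.

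**Figure D3:**
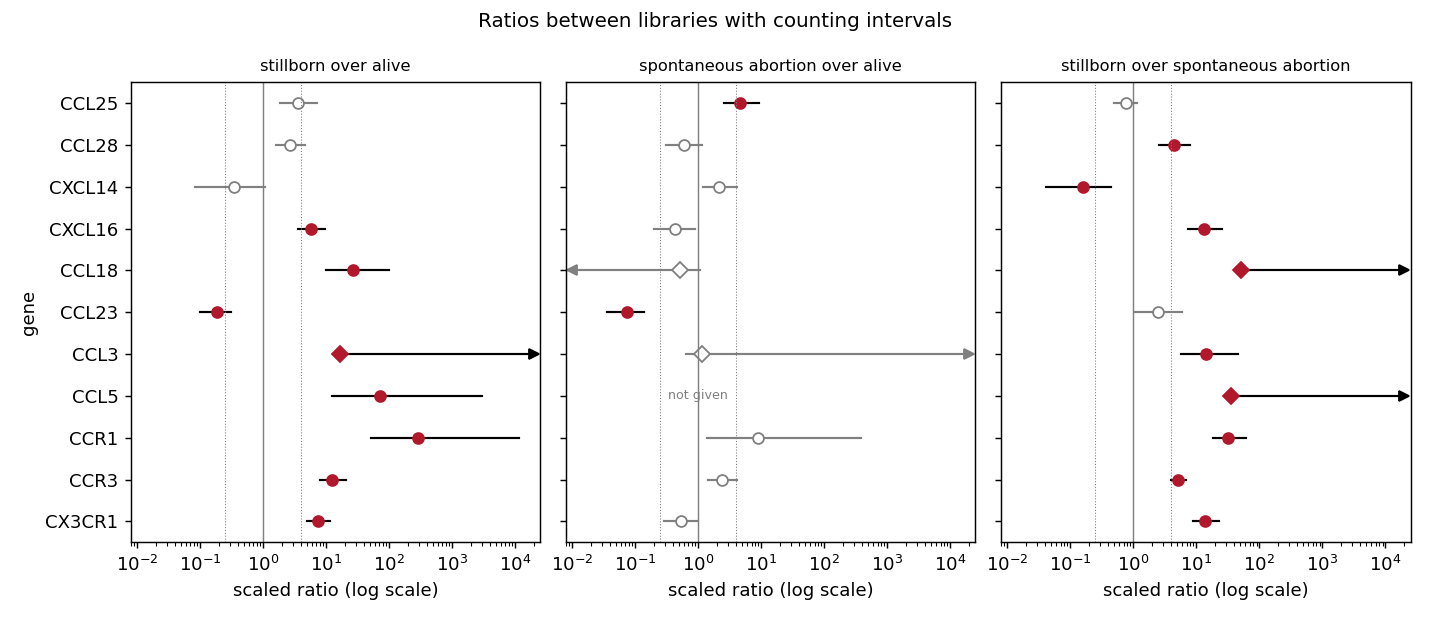
Ratios between libraries after TMM scaling (horizontal axes, log scale) with 95% exact intervals as lines, for 11 members apart in at least 1 pair. Filled symbols are apart, diamonds are ratios against a library at 0 taken as 3 reads, arrows mark intervals that run past the axis, and dotted lines stand at 4-fold either way. CCR1 lies farthest right for stillborn over alive at 288, and CCL23 left of 1 in both comparisons with the alive library.

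Over the 26 members with at least 10 reads in a library, the median difference in log2(RPKM + 0.1) between scaled libraries was 1.31 for stillborn over alive, 0.03 for spontaneous abortion over alive and 0.73 for stillborn over spontaneous abortion. Over the 16795 such genes of the files it was 0, 0.01 and -0.03. With reads in place of RPKM and libraries at 0 taken as 3 reads, the members' medians were 2.03, 0.54 and 1.74, over 25, 21 and 26 members with more than 3 reads in the pair. The stillborn library held the highest scaled level for 15 of the 26, against 36.6% of all genes, the spontaneous abortion library for 7, against 27.2%, and the alive library for 4, against 36.1%. Of those 15, CXCL1, CXCL8, CXCL12, CCL3, CCL5, CCL18, CCL22 and CXCR2 reached 10 reads only in the stillborn library. They entered the 26 through the library where they were highest, as CCL20 and CXCR5 did through the spontaneous abortion library. This weighs on the medians and on the counts of highest levels. Over all members with any read the median for stillborn over alive was 0.66.

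Ligands and their receptors did not always lie in the same order. CCL3 and CCL5 and their receptor CCR1 were all highest in the stillborn library. CCL23, also a ligand of CCR1, was highest in the alive library, where CCR1 had 1 read. CX3CR1 was 7.34-fold higher in the stillborn than in the alive library beside a ratio of 0.836 for its ligand CX3CL1. CXCL16 had 94 stillborn reads beside 0 for its receptor CXCR6, and CCL25 had 87 reads in the spontaneous abortion library beside 0 for CCR9. ACKR3 and CXCR4 share the ligand CXCL12 and were both highest in the alive library, where CXCL12 had 2 reads. CXCR4 had only 7 reads there, and its stillborn to alive interval includes 1.

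CCR2, CCR3 and CCR1 lie side by side in this order in the RefSeq annotation, followed by XCR1, with a locus of no gene name between CCR1 and XCR1. CCR3 and CCR1 were highest in the stillborn library and CCR2 in the spontaneous abortion library, so the order of the libraries changed within the cluster. XCR1 was at 0 throughout.

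Other genes of the pathway were counted by the same rule. Of 31 genes of chemokine receptor signalling in the files, 28 had enough reads for stillborn over alive, and 4 were apart as higher, against 4.71% of all genes, and 0 as lower, against 3.23%. Among them were RAC2, a small GTPase of leukocytes, DOCK2, its exchange factor, and the Src-family kinase FGR. RAC2 stood at RPKM 26.7, 1.23 and 1.66 and FGR at 1.06, 0.0498 and 0.0938. The list's median log2 ratio was -0.10, beside 0 over all genes. For spontaneous abortion over alive, 0 of 23 were apart as higher and 1, the leukocyte kinase PIK3CG, as lower, against 2.31% and 1.50% of all genes. For stillborn over spontaneous abortion, 5 of 28 were higher, among them ARRB2, PIK3CG, RAC2 and FGR, and 0 lower, against 2.82% and 1.65% of all genes.

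Of the 17 genes that present or cleave chemokines, such as syndecans and proteases, MMP9, a gelatinase of neutrophils and macrophages, was apart as higher for stillborn over alive among 14 with enough reads, and 0 as lower. MMP9 and SDC2, a syndecan, were higher among 15 for stillborn over spontaneous abortion, and 0 of 14 were apart for spontaneous abortion over alive. Of 10 genes for other ligands and adaptors, RARRES2, which encodes the chemoattractant chemerin, was apart as lower for stillborn over alive among 9, at RPKM 0.379, 2.16 and 3.99, and 0 were apart as higher. For spontaneous abortion over alive, CCRL2, an atypical chemerin receptor, was lower among 9 by 14.4-fold (5.20 to 55.4) and 0 were higher. For stillborn over spontaneous abortion, CCRL2 was 13.8-fold (4.85 to 53.8) and CD74, the invariant chain that also serves as a receptor for MIF, 6.50-fold (4.85 to 8.83) higher among 9, and RARRES2 was lower. Of 18 inducers and regulators of chemokine genes, 13 had enough reads in each pair. IL6 and ICAM1 were apart as higher for stillborn over alive, IL1A and ICAM1 for spontaneous abortion over alive, and 0 between the losses, with 0 lower in any pair. All counts of these lists stand beside the shares of all genes. Those were 4.71% higher and 3.23% lower for stillborn over alive, and 2.31% and 1.50% for spontaneous abortion over alive. For stillborn over spontaneous abortion they were 2.82% and 1.65%. A count of 1 rests on a single gene. IFNG, IL17A and IL17C were at 0 in all 3 libraries.

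Leukocyte markers differed between the libraries as well. The 13 neutrophil markers in the files summed to RPKM 22.3, 3.90 and 1.85, and MPO, ELANE and S100A12 were at 0 in all 3 libraries. The 12 monocyte and macrophage markers summed to 40.6, 11.1 and 13.7, with MARCO at 0 throughout and 10, 6 and 9 of them at 10 reads or more. Most of the stillborn sum came from CD68 and LYZ, at RPKM 14.9 and 12.04. Of 8 with enough reads for stillborn over alive, MSR1, MRC1 and C1QB were apart as higher, against 4.71% of all genes, and 0 as lower, against 3.23%. The ratios of CD14, CSF1R, C1QC, CD163 and C1QA were 1.03, 1.30, 1.06, 0.584 and 0.319, with intervals that include 1. The 10 T cell markers summed to 7.18, 1.52 and 1.47, of which IL7R gave 3.34, 0.609 and 0.301 and LCK 3.02, 0.888 and 1.14. LCK was 2.97-fold higher in the stillborn than in the alive library (2.13 to 4.19) and was not apart. The other T cell markers had 12 reads or fewer in each library, and CD3D, CD3E and CD2 were at 0 in all 3 libraries. These 3 lists were highest in the library where CCR1, CX3CR1, CCL3, CCL5 and CCL18 were highest.

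The 7 NK cell markers summed to RPKM 4.0025, 1.69 and 18.5, with PRF1 at 0 in all 3 libraries, and the 6 dendritic cell markers to 0.328, 0.0298 and 1.76. Both lists were highest in the alive library, as was CCL23, and most of the alive sums came from the granule genes GNLY and GZMB, at RPKM 8.84 and 8.44 in the alive library, and the receptor FLT3, at 1.70. Other markers of these lists had few reads or another order. NCAM1 stood at RPKM 0.686, 1.22 and 1.10, and NKG7, KLRD1 and KLRF1 had 0, 0 and 1 reads each. CLEC9A, CD1C and LAMP3 had 1, 3 and 2 reads in the stillborn library and 0 elsewhere. CLEC10A had 0, 1 and 0 and BATF3 had 0, 1 and 4. The 7 squamous epithelial markers summed to 908, 479 and 320, of which KRT6A gave 588, 254 and 135. Of these 7, 5 were apart as higher for stillborn over alive, against 4.71% of all genes. KRT13 had a ratio of 1.38, and KRT5 ran the other way at RPKM 49.1, 151 and 151. The 7 endothelial markers to 1.19, 1.59 and 1.25. The summed neutrophil, monocyte, T cell and squamous markers were thus highest in the stillborn library. The summed NK and dendritic cell markers, led by GNLY, GZMB and FLT3, were highest in the alive library. The part of these markers in the chemokine differences was not tested.

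**Figure D4:**
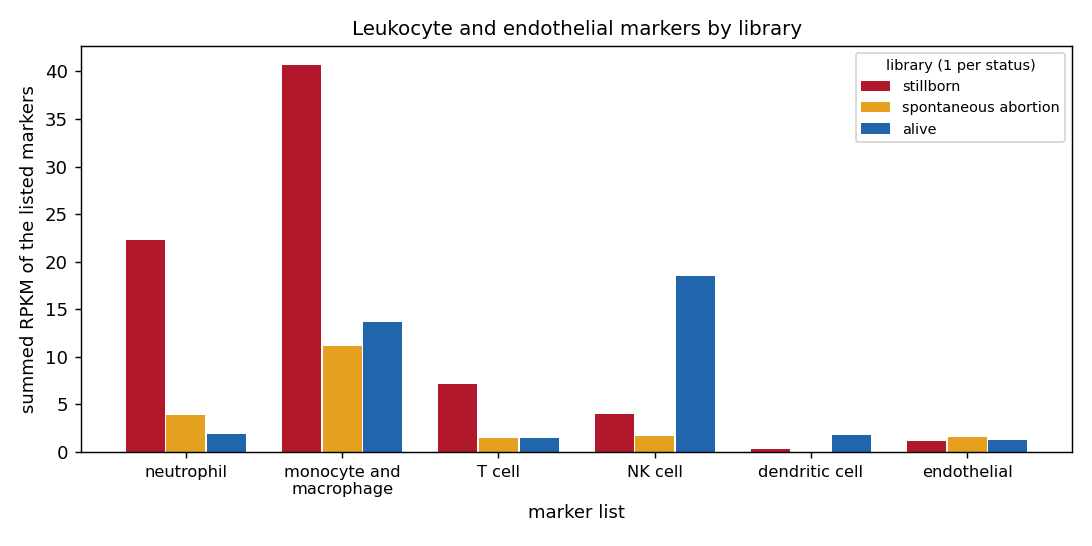
Summed RPKM (vertical axis) of the markers of 5 leukocyte types and of endothelium (horizontal axis), 1 bar per library, with no error bars because each status has 1 library. Neutrophil, monocyte and T cell markers were highest in the stillborn library at 22.3, 40.6 and 7.18, and NK cell markers in the alive library at 18.5.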

How the data were processed

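RNA of amniotic fluid supernatant was amplified with SPIA chemistry and sequenced on a HiSeq2500, per the labels' protocols. Of tools, bcl2fastq 2.17, STAR and HTSeq stand in the submitters' processing notes. Genome build, annotation and strand setting: not given in the sources used here. RPKM are what the authors deposited, and no source used here describes how these were made.

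Whole reads and lengths were solved for in Python 3.11.15 (numpy 2.4.6, scipy 1.17.1). They gave whole numbers within the rounding of the printed digits for 99.8% of the 23276 genes above 0 and for all 57 members. The scale rests on the reads adding up to the totals (96.2% to 96.8%), and each read number is a lower bound, since a factor shared by a gene's reads and length cannot be seen. The method was tested on simulated data.

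TMM factors were 0.937, 1.02 and 1.05. Intervals are exact Clopper-Pearson 95% intervals, given the summed reads of both libraries. Intervals and floors cover counting error of reads only. No molecular identifiers were used, so amplified copies of 1 molecule count as separate reads. The intervals can thus be too narrow for the molecules behind the reads. Members with at least 10 reads in a library were described by name, those apart in any pair and the leading others in full. A few listed genes are counted but not reported here by name. Members and gene lists were chosen with earlier results of these data known. Of the 57 names, 50 were found in the RefSeq table of mChlSab1.0.hap1. Alternatives were 2 other scalings, another fold, read minimum, pseudocount and level.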

Additional observations from a re-analysis of the deposited data

How the results depend on the processing

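The number of members apart was the same in all 3 pairs and both directions with total assigned reads or median-of-ratios factors in place of TMM, and the 144 ratios of single members recomputed with them stayed within their intervals or, against a library at 0, kept their side of 1. Total assigned reads lowered the median of all genes by 0.13 for stillborn over alive (shift -0.13) and by 0.10 for stillborn over spontaneous abortion (shift -0.10). With a minimum of 10 reads, 13 members in place of 7 were apart as higher for stillborn over alive, 3 in place of 1 for spontaneous abortion over alive, and 13 in place of 8 for stillborn over spontaneous abortion, against 7.23%, 3.92% and 4.58% of all genes. The additions were CXCL1, CXCL8, CXCL12, CCL22 and CXCR2 in both stillborn comparisons, CCL27 in that with the alive library, and CCR1 and CXCR5 for spontaneous abortion over alive. With a fold of 2, 6 were apart as higher and 2 as lower for spontaneous abortion over alive, in place of 1 and 1 and against 7.69% and 5.70% of all genes, among them CXCL14, CCR2, CCR3 and ACKR2 as higher and ACKR3 as lower. For stillborn over alive this fold put 10 apart as higher in place of 7, against 13.1% of all genes. CCL25, CCL28 and ACKR2 were added, and 1 stayed apart as lower, against 12.5%. For stillborn over spontaneous abortion the counts stayed at 8 and 2, against 7.52% and 7.47%. The median log2 ratio for stillborn over alive was 1.19 with total assigned reads, 0.44 with a pseudocount of 1 and 0.66 over all members with any read. For stillborn over spontaneous abortion it was 0.31 and 0.59 with the last 2 of these settings. At RPKM 0.1 in place of 1, 24, 21 and 17 members were present (stillborn, spontaneous abortion, alive), and with 3 reads in place of 10, 22 were detected in the alive library. Depth limits the members with few reads: 40 of 57 never reached 30 reads. No paired analysis was possible because each status has 1 library, and for the same reason no replicate could be left out.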

Other observations

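Chemokine genes whose names the choice of members did not cover were also scarce. PPBP, a platelet chemokine, had 7, 1 and 0 reads in the order stillborn, spontaneous abortion, alive. CCRL2, an atypical chemokine-like receptor that binds chemerin, had 30, 4 and 40 reads. CCL21, listed under LOC103219246, and PF4V1 were at 0 in all 3 libraries.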
